A study of Mus musculus with 6 samples.

Results

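The cyclic nucleotide phosphodiesterases *Pde4a*, *Pde4b*, *Pde4c*, *Pde4d*, *Pde3a*, *Pde3b*, *Pde7a*, *Pde7b*, *Pde8a* and *Pde10a* were followed in Ocy454 cells by RNA sequencing. The members were taken by gene symbol, with every Ensembl identifier of a symbol kept, which gave 11 rows for 10 of the 39179 genes listed. *Pde4d* has 2 identifiers, which are shown separately throughout. Ocy454 is a conditionally immortalised mouse line with osteocyte-like features, and the libraries came from a subclone grown from a single cell, so the replicates share a clonal origin. Every culture was grown to confluence at 33 °C, kept for 14 days at 37 °C, and given fresh medium 24 h before collection. Cells were exposed for 4 h to vehicle (PBS with 25 mM HCl), to PTH 1-34 at 1 nM, or to YKL-05-093 at 0.5 µM, with 2 libraries per condition. YKL-05-093 is a compound that blocks salt inducible kinases (SIKs). The paper reports that it also acts on other kinases in vitro. It changed some of the genes measured there in cells lacking SIK2 and SIK3 as well. Which kinase lies behind a change after YKL-05-093 was not tested here. The labels give the same vehicle for both agents and no separate solvent control for YKL-05-093. The paper's supplementary methods name DMSO as the solvent of its compounds in cell culture, and PBS with HCl for use in mice. Whether the vehicle cultures received DMSO is not stated, so effects of YKL-05-093 and of its solvent cannot be told apart.

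Phosphodiesterases break the phosphate ring of cAMP or cGMP and so end the signal of these second messengers. The PTH receptor couples to Gs, which activates adenylyl cyclase, and the cAMP formed opens the regulatory subunits of protein kinase A (PKA). PKA phosphorylates CREB at target genes and also phosphorylates SIKs, which ordinarily hold the CRTC coactivators of CREB in the cytoplasm. Induction of phosphodiesterase genes by cAMP is a known form of negative feedback. The PDE4, PDE7 and PDE8 enzymes are specific for cAMP, PDE3 enzymes are cAMP-hydrolysing and inhibited by cGMP, and PDE10A acts on both nucleotides.

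The totals used to scale the deposited RPKM values (reads scaled by gene length and library total) were recovered from the steps of those values. They were between 17505798 and 27983585 reads in the 6 libraries, and the genes listed held 17446599 to 27895651 of these. Such totals are not the number of reads sequenced. The vehicle libraries differed more from each other than the treated ones did, with a median absolute log2 difference over 14264 genes of 0.333 in vehicle, 0.108 with PTH and 0.103 with YKL-05-093. Of the osteocyte markers *Dmp1*, *Phex*, *Pdpn*, *Mepe*, *Sost* and *Fgf23*, 3 of 6 reached 0.5 RPKM in 2 or more libraries, and *Mepe*, *Sost* and *Fgf23* did not. The summed level of the 6 was 55.7 to 73.3 RPKM in vehicle, 165 to 176 RPKM with PTH and 98.4 to 99.1 RPKM with YKL-05-093, nearly all of it *Pdpn* (53.1 to 171 RPKM), while *Dmp1* was at 0.643 and 1.15 RPKM in vehicle, 0.689 and 0.723 RPKM with PTH, and 0.376 and 0.490 RPKM with YKL-05-093. *Mepe* and *Sost* were listed at 0 in both PTH libraries, but had few reads elsewhere. *Sost* had 0 and 3 reads in vehicle and 1 and 2 with YKL-05-093. *Mepe* had 4 and 2 reads in vehicle and 3 and 1 with YKL-05-093. Such low counts were not tested for a change. The 4 osteoblast markers were all detected, with a summed level of 383 to 548 RPKM led by *Col1a1*. They did not move together. *Sp7* was at 45.5 to 46.0 RPKM in vehicle, 11.1 to 12.2 RPKM with PTH and 22.4 to 29.6 RPKM with YKL-05-093. *Bglap* was at 6.61 and 11.5 RPKM in vehicle, 27.1 and 25.3 RPKM with PTH, and 11.9 and 11.4 RPKM with YKL-05-093. *Alpl* was at 61.7 and 67.3, 78.8 and 76.1, and 71.4 and 88.9 RPKM in the same order. *Col1a1* was at 389 and 259, 430 and 371, and 328 and 396 RPKM. Summed markers of other cell types reached at most 4.51 RPKM for macrophage and blood, 3.38 for chondrocyte, 2.32 for adipocyte, 1.79 for endothelial cells (0.513 to 0.652 in vehicle) and 0.0862 for muscle. Their part in the results was not tested. In bulk RNA, fewer cells carrying a transcript and less transcript per cell cannot be told apart.

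Differences between conditions were tested with limma on log2(RPKM + 0.1) over all genes that reached 0.5 RPKM in 2 or more libraries. A gene was called when its Benjamini-Hochberg adjusted p was below 0.05 and its change exceeded 2-fold. Of the member rows, 7 rows of 6 genes passed the filter, and *Pde4c*, *Pde3a*, *Pde7b* and *Pde10a* did not. An exact permutation test of 2 against 2 libraries cannot give a p below 0.333, so none was run for single genes. The p-values measure the spread between the 2 libraries of a condition, which may be technical.

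*Pde4b* and *Pde4d* were the member genes called after either agent, and both rose. After PTH, 3 of the 7 rows tested were higher than vehicle, namely *Pde4b* and both identifiers of *Pde4d*, and 0 were lower. Over all genes, 1.91% were called in this comparison (272 of 14261) and 1.09% were called higher. After YKL-05-093 the 3 rows called higher were again *Pde4b* and both identifiers of *Pde4d*, with 0 lower, against 0.666% of all genes called (95 of 14255) and 0.393% called higher. These comparisons share the vehicle libraries and are therefore not independent. The *Pde4d* identifiers stand for a single gene and are not separate evidence. The median log2 difference of the 7 rows, which count *Pde4d* under both identifiers, was 0.85 after either agent. The median over all genes tested was −0.03 after PTH and −0.04 after YKL-05-093.

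**Figure D1:**
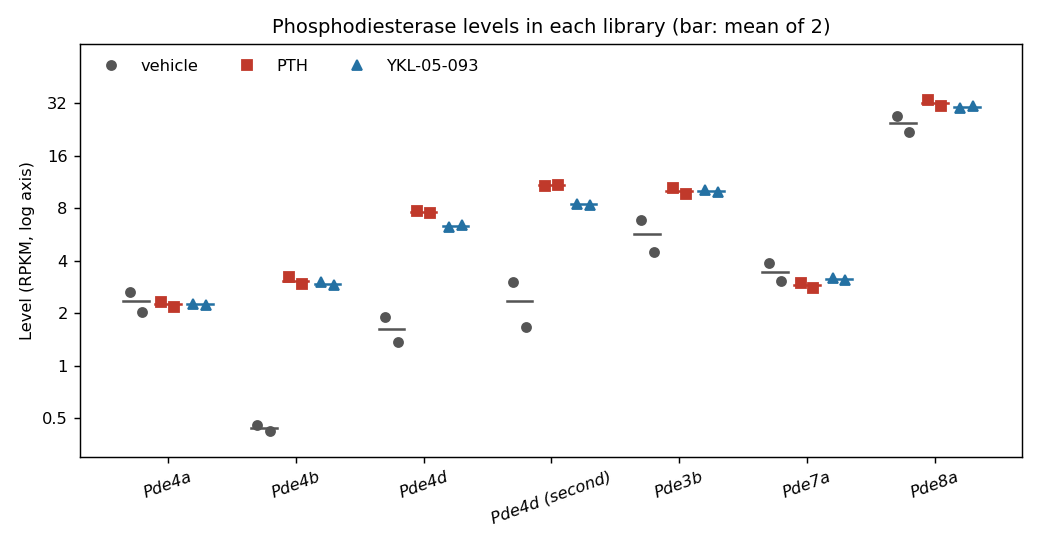
Level of the 7 tested rows in each library, in RPKM on a log axis, with a symbol for each library and a horizontal bar for the mean of the 2 libraries of a condition. "Pde4d (second)" is the second identifier of the gene. *Pde4b* lies below 0.5 RPKM in both vehicle libraries and between 2.89 and 3.21 RPKM in the 4 treated libraries, *Pde4d* shows the same separation, and *Pde4a* overlaps between conditions.

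*Pde4b* (ENSMUSG00000028525, GRCm38 chr4:102087543-102607259, plus strand) encodes a cAMP-specific enzyme of the rolipram-sensitive PDE4 family. Its level was 0.453 and 0.422 RPKM in the vehicle libraries, 3.21 and 2.93 RPKM in the PTH libraries, and 3.00 and 2.89 RPKM in the YKL-05-093 libraries. These values came from 84 and 125 reads in vehicle and from 592 to 735 reads in the treated libraries. Every treated library was therefore far above both vehicle libraries, and the PTH and YKL-05-093 libraries overlapped each other. The mean rose from 0.437 ± 0.0221 RPKM (SD, n = 2) in vehicle to 3.07 ± 0.199 RPKM (SD, n = 2) with PTH and to 2.94 ± 0.0757 RPKM (SD, n = 2) with YKL-05-093, ratios of 7.02 and 6.73. The log2 difference from vehicle was 2.56 (SE 0.16, 95% interval 2.18 to 2.94, limma adjusted p = 0.00101) for PTH. For YKL-05-093 it was 2.50 (SE 0.16, 95% interval 2.12 to 2.88, limma adjusted p = 0.00230). Both vehicle libraries were under 0.5 RPKM, so *Pde4b* passed the filter only through the treated libraries in which it was high, and with the filter at 0.1 RPKM, which the vehicle libraries also pass, limma adjusted p was 0.00214 for PTH and 0.00562 for YKL-05-093. The call for PTH was kept when any of the 4 libraries was left out (limma adjusted p 0.000971 to 0.0470), and so was the call for YKL-05-093 (0.000639 to 0.0342). It was lost without a filter on low values for both agents, at limma adjusted p = 0.0558 and 0.137, and, for YKL-05-093, at limma adjusted p = 0.0684 when the model of the spread used mean levels instead of reads.

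GENCODE lists 13 transcript starts for *Pde4b*, and the deposited value sums over all of them. RefSeq promoter windows (GRCm38.p6, 250 bases before to 50 bases after a start) were available for 7 of the 10 genes, with 13 windows in all, 4 of them for *Pde4b*. The letters of the full cAMP response element, TGACGTCA, occurred in 0 of the 13 windows and in 1.79% of all 32851 windows. The core TGACG, on either strand and including cases inside the full element, occurred in 3 of the 13 windows and in 20.8% of all windows. The letters AAAGGTCA, to which NR4A receptors bind, occurred in 0 of the 13 windows and in 1.51% of all windows, again on either strand. The windows with a TGACG core were 1 of the 4 of *Pde4b*, a member that rose, 1 of the 3 of *Pde4a* and the 1 of *Pde8a*. *Pde4a* and *Pde8a* were not called. The stretches from 129 to 30 bases before the start are shown for these 3 windows, plus strand, 5′ to 3′, with the core in capitals, to let the base context of a called gene be read beside that of 2 genes that were not.
Pde4b, chr4:102421426-102421525: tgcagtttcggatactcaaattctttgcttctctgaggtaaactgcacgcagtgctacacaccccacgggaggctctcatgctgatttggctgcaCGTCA
Pde4a, chr9:21183972-21184071: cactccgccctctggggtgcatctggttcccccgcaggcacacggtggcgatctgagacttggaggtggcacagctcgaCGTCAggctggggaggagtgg
Pde8a, chr7:81213136-81213235: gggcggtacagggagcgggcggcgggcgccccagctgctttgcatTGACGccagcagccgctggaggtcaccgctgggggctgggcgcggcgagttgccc
The core was read on the minus strand in *Pde4b* and *Pde4a*, as CGTCA, and on the plus strand in *Pde8a*. Its first base lay at −34 in *Pde4b*, at −50 in *Pde4a* and at −84 in *Pde8a* relative to the start. The last 8 bases of the *Pde4b* stretch fall within an exon of a GENCODE transcript. The 1 window held for *Pde4d* contained none of the 3 motifs, but GENCODE lists 20 transcript starts for that gene, most of them not covered. A match describes letters only, and binding was not measured.

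*Pde4d* encodes another cAMP-specific PDE4 enzyme, from a large gene on chr13 (ENSMUSG00000021699, GRCm38 chr13:108449948-109953461, plus strand). Its level was 1.90 and 1.36 RPKM in vehicle, 7.74 and 7.46 RPKM with PTH, and 6.21 and 6.38 RPKM with YKL-05-093. All 4 treated libraries were above both vehicle libraries, and both PTH libraries were above both YKL-05-093 libraries. The mean was 1.63 ± 0.377 RPKM (SD, n = 2) in vehicle, 7.60 ± 0.203 RPKM (SD, n = 2) with PTH and 6.29 ± 0.124 RPKM (SD, n = 2) with YKL-05-093. The log2 difference from vehicle was 2.17 for PTH (SE 0.19, 95% interval 1.72 to 2.62, limma adjusted p = 0.00277), a 4.66-fold ratio of the means. For YKL-05-093 it was 1.90 (SE 0.19, 95% interval 1.45 to 2.36, limma adjusted p = 0.0163), a 3.86-fold ratio.

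The second *Pde4d* identifier, ENSMUSG00000074661, has a recovered length of 1854 bases against 11111 bases for the first, and it is missing from the GENCODE M21 annotation used here for positions. Whether its exons lie within those of the first could not be looked up, so reads that fit both may have been split or dropped in counting. Its level was 3.02 and 1.66 RPKM in vehicle, 10.7 and 10.9 RPKM with PTH, and 8.43 and 8.37 RPKM with YKL-05-093. The groups separated in the same order as for the first identifier, and its vehicle libraries were farther apart. The log2 difference was 2.22 for PTH (SE 0.27, 95% interval 1.58 to 2.85, limma adjusted p = 0.00914) and 1.86 for YKL-05-093 (SE 0.28, 95% interval 1.21 to 2.52, limma adjusted p = 0.0459). The latter call was lost under 6 of 14 other ways of processing, among them a pseudocount of 0.01 (limma adjusted p = 0.0614) or 1 (0.0521) and a filter at 0.1 RPKM (0.0746). The ratio of the second identifier to the first was 1.59 and 1.22 in vehicle and between 1.31 and 1.46 in the treated libraries, which lie between the vehicle values.

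The *Pde4d* calls were sensitive to leaving out a treated library. Such a fit has 1 library in the treated condition, and fewer of all genes were then called as well. For the first identifier, the PTH difference was 2.14 without PTH replicate 1 (limma adjusted p = 0.0890) and 2.20 without PTH replicate 2 (limma adjusted p = 0.0828), and the YKL-05-093 difference was 1.92 without YKL-05-093 replicate 1 (limma adjusted p = 0.141). For the second identifier the matching values were 2.23 (limma adjusted p = 0.122), 2.21 (limma adjusted p = 0.128) and 1.86 (limma adjusted p = 0.281). In each of these cases the size of the difference moved little and the call was lost. Without YKL-05-093 replicate 2 both YKL-05-093 calls were kept (limma adjusted p = 0.0303 and 0.0414). Leaving out either vehicle library kept every *Pde4d* call, and for the first identifier the PTH difference was then 1.95 or 2.39 and the YKL-05-093 difference 1.68 or 2.13.

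Of the other cAMP-specific PDE4 genes, *Pde4a* was not called and *Pde4c* had too few reads to be tested. *Pde4a* was at 2.65 and 2.03 RPKM in vehicle, 2.33 and 2.17 RPKM with PTH, and 2.25 and 2.24 RPKM with YKL-05-093. All 4 treated libraries lay between the vehicle libraries, at 275 to 377 reads per library over the 6. The log2 difference was −0.04 for either agent (95% interval −0.47 to 0.39 for PTH, limma adjusted p = 0.957), an interval that leaves out a 2-fold change. Within the same library, the ratio of *Pde4b* to *Pde4a* was 0.171 and 0.208 in vehicle, 1.38 and 1.35 with PTH, and 1.33 and 1.29 with YKL-05-093. The ratio of *Pde4d* (first identifier) to *Pde4a* went from 0.716 and 0.672 in vehicle to 3.32 and 3.43 with PTH and 2.76 and 2.85 with YKL-05-093. These ratios of RPKM do not depend on the library total. *Pde4c* had 0 to 5 reads per library and was at most 0.0416 RPKM, and the 0 reads of vehicle replicate 1 allow a level of up to 0.0385 RPKM at a limit of 3 reads. Its pooled reads gave a ratio to vehicle of 1.34 for PTH (6 against 5 reads, exact 95% counting interval 0.341 to 5.56) and 0.887 for YKL-05-093 (4 against 5 reads, 0.176 to 4.12). These intervals include 1 and also the *Pde4d* ratios of 4.66 and 3.86, so they neither show nor exclude a change of that size.

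**Figure D2:**
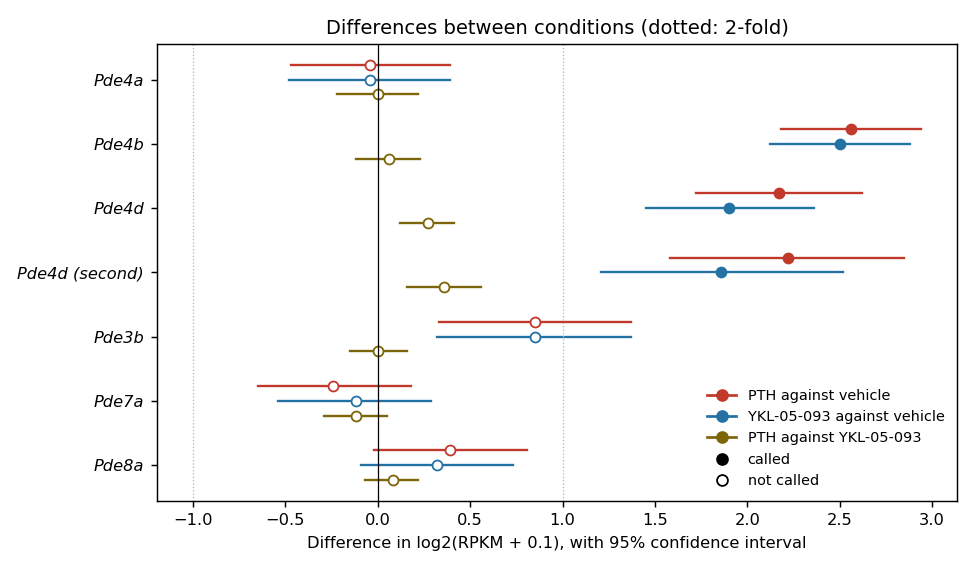
Difference in log2(RPKM + 0.1) between conditions for the 7 tested rows, with 95% confidence intervals from limma. Red is PTH against vehicle, blue is YKL-05-093 against vehicle and brown is PTH against YKL-05-093, with filled points for calls. *Pde4b* and both *Pde4d* rows lie between 1.86 and 2.56 for either agent against vehicle, *Pde3b* lies at 0.85, and the intervals of *Pde4a* and *Pde7a* span 0.

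*Pde3b* (ENSMUSG00000030671, GRCm38 chr7:114415281-114539251, plus strand) encodes the cGMP-inhibited enzyme through which insulin lowers cAMP in fat cells. It was at 6.87 and 4.47 RPKM in vehicle, 10.5 and 9.65 RPKM with PTH, and 10.2 and 9.88 RPKM with YKL-05-093. All 4 treated libraries were above both vehicle libraries. The log2 difference was 0.85 for PTH (SE 0.22, 95% interval 0.33 to 1.37, limma adjusted p = 0.136) and 0.85 for YKL-05-093 (SE 0.22, 95% interval 0.32 to 1.37, limma adjusted p = 0.240), so neither was called. Without vehicle replicate 1, the higher of the vehicle libraries, both were called at a difference of 1.15 (limma adjusted p = 0.00315 for PTH and 0.0460 for YKL-05-093). Without vehicle replicate 2 they were 0.55 and 0.54, so the size depends on which vehicle library is used. *Pde3a*, the other gene of its family, had 0 to 4 reads per library, and its exons overlap those of the antisense gene *Gm28523*.

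*Pde8a* (ENSMUSG00000025584, GRCm38 chr7:81213596-81334533, plus strand) encodes a high-affinity cAMP phosphodiesterase that is insensitive to the common inhibitor IBMX. It had the highest level of the members in every library, at 27.0 and 22.0 RPKM in vehicle, 33.2 and 31.0 RPKM with PTH, and 30.1 and 30.8 RPKM with YKL-05-093. Treated libraries were above both vehicle libraries by a small margin. The log2 difference was 0.39 for PTH (95% interval −0.02 to 0.81, limma adjusted p = 0.405) and 0.32 for YKL-05-093 (95% interval −0.09 to 0.73, limma adjusted p = 0.736), and neither was called.

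*Pde7a* (ENSMUSG00000069094, GRCm38 chr3:19223108-19311322, minus strand) encodes a cAMP-specific enzyme found in many tissues, T cells among them. It was at 3.86 and 3.04 RPKM in vehicle, 2.97 and 2.80 RPKM with PTH, and 3.18 and 3.09 RPKM with YKL-05-093. Both PTH libraries were below both vehicle libraries, whereas the YKL-05-093 libraries lay between the vehicle values. The log2 difference was −0.24 for PTH (95% interval −0.65 to 0.18, limma adjusted p = 0.667) and −0.12 for YKL-05-093 (95% interval −0.54 to 0.29, limma adjusted p = 0.903), and neither was called. Its exons overlap the antisense gene *Gm16093*, and the use of strand in counting is not stated.

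Counted by separation of the libraries alone, 5 of the 7 rows had both PTH libraries above both vehicle libraries, 1 had both below, and 1 overlapped. Of all genes tested, 43.1% were separated in this way in either direction. For YKL-05-093, 5 rows were above, 0 were below and 2 overlapped, against 37.8% of all genes separated. With 2 libraries per condition, separation is common.

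The order of the levels changed with treatment. In vehicle, mean levels ran from *Pde8a* (24.5 RPKM) through *Pde3b* (5.67 RPKM) and *Pde7a* (3.45 RPKM) to *Pde4a* (2.34 RPKM), *Pde4d* (1.63 RPKM by the first identifier) and *Pde4b* (0.437 RPKM). Neighbours in this order were separated in both libraries except *Pde4a* and the *Pde4d* identifiers, which overlapped. With PTH, the first *Pde4d* identifier (7.60 RPKM) stood directly below *Pde3b* (10.1 RPKM) and the second (10.8 RPKM) directly above it, and *Pde4b* (3.07 RPKM) and *Pde7a* (2.89 RPKM) overlapped above *Pde4a* (2.25 RPKM). With YKL-05-093 the order was *Pde8a* (30.4 RPKM), *Pde3b*, *Pde4d* (8.40 RPKM by the second identifier and 6.29 RPKM by the first), *Pde7a* (3.14 RPKM), *Pde4b* (2.94 RPKM) and *Pde4a* (2.25 RPKM), with all neighbours separated. *Pde4b* was thus the lowest of the 6 detected genes in vehicle, and *Pde4a* was the lowest after either agent.

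Summed over the 10 genes, with the first identifier for *Pde4d*, the members made up 42.7 and 33.4 RPKM in vehicle, 60.2 and 56.2 RPKM with PTH, and 55.1 and 55.3 RPKM with YKL-05-093. The PDE4 genes were 11.7% and 11.5% of this sum in vehicle, 22.2% and 22.4% with PTH, and 20.8% in both YKL-05-093 libraries. *Pde8a* was 63.2% and 65.9% in vehicle and between 54.7% and 55.6% in the treated libraries. The treated and vehicle libraries did not overlap in any of these measures. The shares describe RNA levels per length and say nothing of enzyme activity.

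*Pde7b* and *Pde10a* were at the edge of detection, and their reads are given without a test. *Pde7b*, a second cAMP-specific gene of the PDE7 family, had 1 and 2 reads in vehicle, 20 and 9 with PTH, and 10 and 4 with YKL-05-093. *Pde10a*, whose enzyme is best known from striatal neurons, had 0 and 1 reads in vehicle, 7 and 6 with PTH, and 4 and 2 with YKL-05-093. For both genes every treated library held more reads than either vehicle library. Pooled over the libraries of a condition and scaled to their totals, *Pde7b* was 10.8 times as high with PTH as in vehicle (29 against 3 reads, exact 95% counting interval 3.35 to 55.5) and 5.17 times with YKL-05-093 (14 against 3 reads, 1.44 to 28.1). *Pde10a* was 14.5 times as high with PTH (13 against 1 reads, 2.18 to 618) and 6.65 times with YKL-05-093 (6 against 1 reads, 0.807 to 306), an interval that includes 1. The intervals cover counting error only and leave out variation between cultures. No library exceeded 0.104 RPKM for *Pde7b* or 0.0251 RPKM for *Pde10a*.

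**Figure D3:**
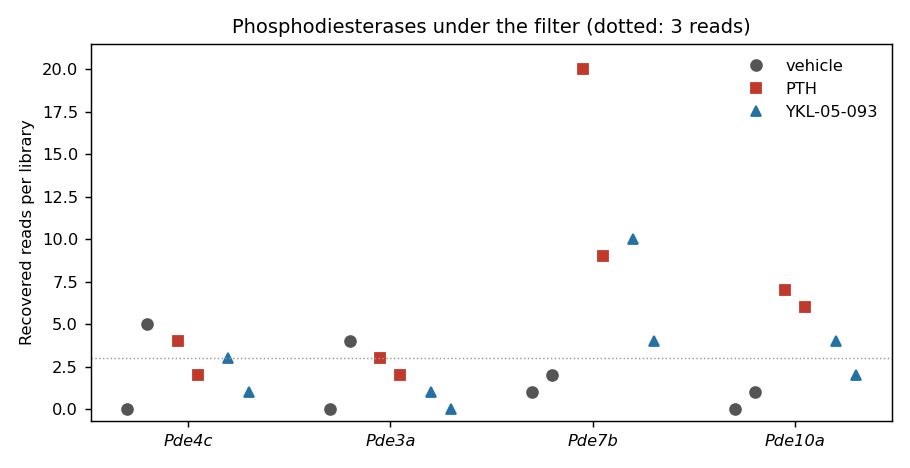
Recovered reads per library for the 4 members under the filter, on a linear axis, with a symbol for each library and a dotted line at 3 reads. *Pde7b* reached 20 and 9 reads with PTH against 1 and 2 in vehicle and *Pde10a* reached 7 and 6 against 0 and 1, while *Pde4c* and *Pde3a* stayed between 0 and 5 reads in every library.

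The direct comparison of PTH with YKL-05-093 asked whether the agents left different phosphodiesterase levels behind. Of the 7 rows, 0 were called, against 1.21% of all genes (172 of 14255). Without the limit on the fold change, both *Pde4d* identifiers passed an adjusted p of 0.05, where 10.0% of all genes did (1427), and at an unadjusted p below 0.05 the count was also 2. With voom on the recovered reads 0 rows were called. The first identifier was higher with PTH than with YKL-05-093 by 0.27 on the log2 scale (SE 0.07, 95% interval 0.12 to 0.41, limma adjusted p = 0.0165), a 1.21-fold ratio of the means. The second was higher by 0.36 (SE 0.10, 95% interval 0.16 to 0.56, limma adjusted p = 0.0237). Leaving out any of the 4 libraries kept the first difference between 0.24 and 0.29 but raised its limma adjusted p to between 0.184 and 0.260, and in a fit of all 6 libraries, whose spread includes that of vehicle, it was 0.822.

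For *Pde4b* the direct difference was 0.06 (95% interval −0.12 to 0.23, limma adjusted p = 0.760), and for *Pde3b* it was 0.00 (95% interval −0.15 to 0.16, limma adjusted p = 0.984). These intervals bound a difference between the agents, at the doses used, well under 2-fold. *Pde8a* differed by 0.08 (95% interval −0.07 to 0.22, limma adjusted p = 0.577), *Pde7a* by −0.12 (95% interval −0.29 to 0.05, limma adjusted p = 0.451) and *Pde4a* by 0.00 (95% interval −0.22 to 0.22). The PTH and YKL-05-093 libraries were separated for 4 of the 7 rows, 3 with PTH higher and 1 with PTH lower, and 50% of all genes were separated.

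**Figure D4:**
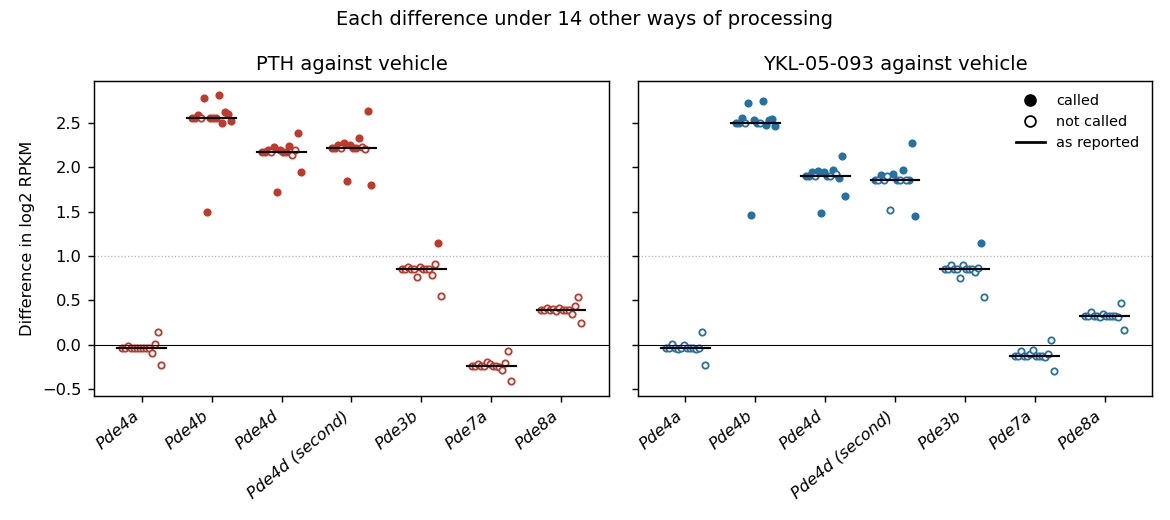
Log2 difference from vehicle of the 7 tested rows as reported (black line) and under 14 other ways of processing the values (points, filled where the row is still called), for PTH at the left and YKL-05-093 at the right. *Pde4b* stays between 1.46 and 2.81 and *Pde4d* (first identifier) between 1.48 and 2.39 over both panels, and *Pde3b* is called under a single alternative in each panel.

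The genes whose pattern over the 6 libraries was most like that of *Pde4b* were *Glis1*, *Kcne4*, *Kcnk10*, *Mcam* and *Shc2*, measured by the distance between log2(RPKM + 0.1) values centred on vehicle among 11882 genes. *Glis1* encodes a zinc finger transcription factor, *Kcne4* and *Kcnk10* a subunit and a channel for potassium, *Mcam* a cell adhesion molecule and *Shc2* a signalling adaptor. The distance was 0.40 for *Glis1* and *Kcne4* and 0.74 for *Shc2*. *Kcne4* was at 1.60 and 1.82 RPKM in vehicle, 12.0 and 11.4 RPKM with PTH, and 11.3 and 12.0 RPKM with YKL-05-093. *Pde4d* followed at rank 7 (distance 1.05) with its first identifier and at rank 9 (distance 1.16) with its second. *Pde3b* was at rank 173, *Pde8a* at 765, *Pde4a* at 5851 and *Pde7a* at 8498. *Pde4b* was picked for its called change after PTH, the largest of the members. The order of the members therefore restates the calls on the same values and is no separate evidence.

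Other genes of the cAMP pathway were counted by list. Of 13 other phosphodiesterase genes 2 passed the filter, *Pde1b* and *Pde5a*, which act on cGMP or on both nucleotides, and 0 were called by limma in any comparison, with 1, 1 and 2 at an unadjusted p below 0.05 for PTH, YKL-05-093 and the direct comparison. Of the adenylyl cyclases, which make cAMP, 4 of 10 passed the filter, and 7 of 9 PKA subunits and inhibitors did. Of the other cAMP effectors and exporters 3 of 7 passed, and of the anchors and partners that place phosphodiesterases and PKA in the cell 12 of 14 did. In these 4 lists 0 genes were called by limma in any comparison, with 0, 2, 1 and 3 genes at an unadjusted p below 0.05 after PTH 1, 1, 0 and 1 after YKL-05-093, and 1, 2, 3 and 8 in the direct comparison. Of all genes tested, 13.3%, 8.66% and 22.3% had an unadjusted p below 0.05 in these comparisons. The median log2 difference of these lists from vehicle ran from −0.33 for adenylyl cyclases after PTH to 0.08 for other effectors after PTH.

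Of 12 genes known to respond to cAMP 10 passed the filter, and 6 were called higher after PTH and 6 after YKL-05-093, with 0 lower and median log2 differences of 1.34 and 1.51. Over all genes tested, 1.09% and 0.393% were called higher, and the medians were −0.03 and −0.04. The list was chosen with earlier results of these data known. The 4 not called were *Nr4a3* (0.24), *Per1* (0.25), *Sik1* (0.81) and *Dusp1* (0.67) after PTH, and *Cited1* (0.39), *Crem* (0.97), *Per1* (0.97) and *Dusp1* (0.96) after YKL-05-093. The largest calls for PTH were *Cited1* (2.79, a transcriptional coregulator), *Nr4a2* (2.39, an orphan nuclear receptor), *Fos* (1.90, an AP-1 subunit) and *Crem* (1.47, whose ICER form represses cAMP response elements). For YKL-05-093 they were *Nr4a1* (3.18), *Nr4a2* (2.96) and *Nr4a3* (2.30), all orphan nuclear receptors, and *Rgs2* (2.43, an inhibitor of G protein signalling). Directly compared, *Cited1* was higher with PTH by 2.39, and *Nr4a3*, *Nr4a1* and *Rgs2* were lower with PTH by differences of −2.06, −1.93 and −1.0. Of all genes, 1.21% were called in this comparison. *Rgs2* was at the edge of the 2-fold limit. With a pseudocount of 1 the direct calls of *Rgs2* and *Nr4a3* were lost. The same setting lost the calls against vehicle of *Crem* with PTH (0.98) and *Nr4a3* with YKL-05-093 (0.97). With mean levels in the model of the spread, *Crem* lost its PTH call (limma adjusted p = 0.0516). *Nr4a3* (0.148) and *Rgs2* (0.0576) then lost their YKL-05-093 calls against vehicle. The direct call of *Rgs2* was also lost in 1 fit of 6 libraries and without YKL-05-093 replicate 1. *Cited1* passed the filter only through the PTH libraries and *Nr4a3* only through the YKL-05-093 libraries, in which each was high, and with the filter at 0.1 RPKM limma adjusted p was 0.00331 for *Cited1* with PTH and 0.0264 for *Nr4a3* with YKL-05-093 against vehicle. Limma adjusted p-values of these calls ran from 2.29e-09 to 0.0168, and every PTH call named here was lost when either PTH replicate was left out (limma adjusted p up to 0.266 against vehicle and up to 0.144 against YKL-05-093). *Nr4a3* also lost its YKL-05-093 call without vehicle replicate 1 or YKL-05-093 replicate 1 (limma adjusted p up to 0.0672). Of the 10 genes tested, 1 was called higher and 3 were called lower with PTH than with YKL-05-093. The others were not called, and neither were *Pde4b*, which did not pass the test, and *Pde4d*, which differed by less than 2-fold.

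**Figure D5:**
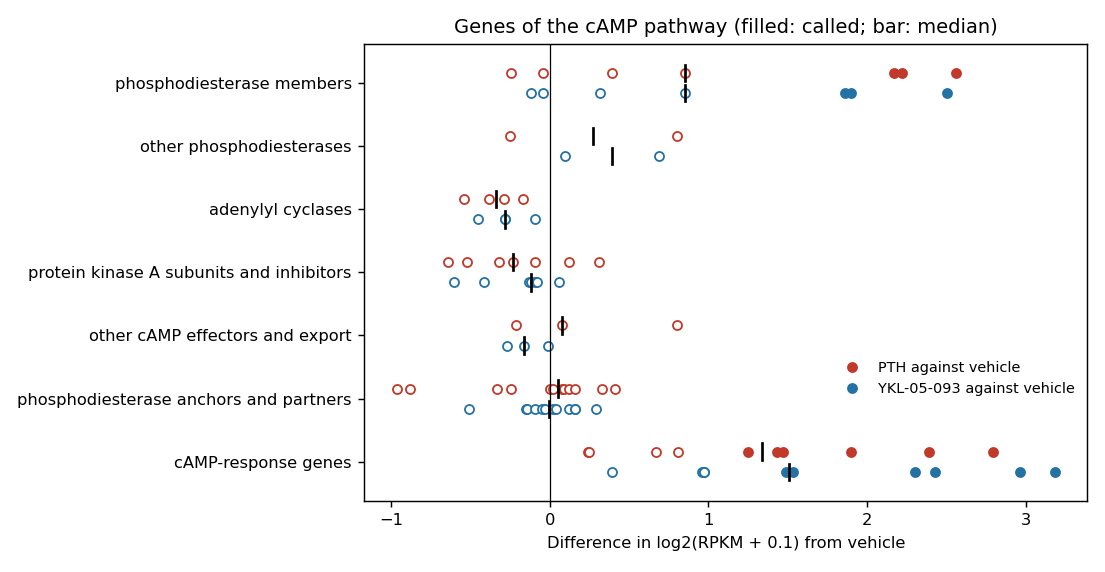
Log2 difference from vehicle of every tested gene in the phosphodiesterase set and in 6 lists of the cAMP pathway, with red points for PTH, blue points for YKL-05-093, filled points for calls and a black bar for the median of each list. Calls lie in the phosphodiesterase members and in the cAMP-response genes, where 6 of 10 genes are filled for each agent, and in no other list.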

How the data were processed

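RNA of 6 Ocy454 cultures, 2 per condition, was sequenced from strand-specific libraries after removal of ribosomal RNA. The authors mapped reads to mm10/GRCm38 with STAR, counted Ensembl genes with HTSeq, and deposited RPKM values, without scaling between libraries. The submitters' processing notes also name CASAVA 1.7. How gene length was taken and whether counting used strand are not given in the sources used here. Lengths recovered from the values equalled the merged exons of GENCODE M21, less 1 base per exon, for 34.9% of genes.

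Reads were recovered as whole numbers from the RPKM steps (relative tolerance 1e-11) and sum to 99.66% to 99.69% of the recovered totals. Tested on simulated libraries, this gave the exact reads for 95.6% of 24657 genes. The RPKM values were tested in R 4.3.3 with limma 3.58.1 on log2(RPKM + 0.1) (genes reaching 0.5 RPKM in 2 or more libraries), in separate fits of the 4 libraries compared, with the prior variance as a trend on mean log2 reads and genes without reads in those libraries left out. A fold change on this scale understates changes of low genes. Counting intervals of pooled reads are exact (Clopper-Pearson, 95%).

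Members, lists, test and filter were chosen with earlier results of these data known. Named were all members, the genes called from each list (at most 4 of largest change per comparison) and the 5 genes of at least 50 mean reads nearest to *Pde4b*. Alternatives were other pseudocounts (0.01 and 1), filters (none and 0.1 RPKM), scalings, spread models, voom on recovered reads, 1 fit of 6 libraries, a replicate block, other fold limits and leaving out each library. Library 1 of a condition was not taken as the partner of library 1 of another.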

Additional observations from a re-analysis of the deposited data

How the results depend on the processing

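Depth limits *Pde4c*, *Pde3a*, *Pde7b* and *Pde10a*, for which few reads were available, and 2 libraries per condition limit the rest. Without a filter on low values 0 member rows and 0 genes were called for either agent against vehicle. When mean levels replaced reads in the model of the spread, 160 genes were called for PTH and, for YKL-05-093, 6 genes and 0 member rows. Pseudocount 1 gave 55 genes for YKL-05-093 and 98 in the direct comparison, a filter at 0.1 RPKM gave 57 for YKL-05-093, and 1 fit of 6 libraries gave 173 and 102. In the direct comparison a limit of 1.5-fold gave 542 genes, and no limit gave 1427 genes and 2 member rows. The cause was not tested.

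When 1 library was left out, the lone library of that condition being assumed to vary like the other group, 1 to 4 member rows were called for either agent against vehicle and 0 in the direct comparison. All genes called ranged from 14 to 671 for PTH (14 without either PTH replicate, 671 without vehicle replicate 2), from 11 to 320 for YKL-05-093 (11 without YKL-05-093 replicate 1, 35 without replicate 2, 42 and 320 without vehicle replicate 1 and 2), and from 0 to 155 in the direct comparison (0 without either PTH replicate). The fourth member row was *Pde3b*, without vehicle replicate 1.

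With the replicate number as a block, 3, 3 and 0 member rows were called for PTH, YKL-05-093 and the direct comparison, the same counts as without the block, and 441 and 215 genes for PTH and YKL-05-093. Same-numbered libraries did not deviate together (correlations of −0.0336, −0.054 and −0.0494), so the number is no evidence of pairing.

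Directions reversed for the following small differences. Over the left-out libraries *Pde4a* ranged from −0.23 to 0.14 for PTH and from −0.23 to 0.14 for YKL-05-093, higher than vehicle without vehicle replicate 1, and it was 0.01 for PTH without PTH replicate 2, and 0.01 for YKL-05-093 with medians made equal. *Pde7a* for YKL-05-093 ranged from −0.29 to 0.05, above 0 without vehicle replicate 1. In the direct comparison *Pde4a* became −0.02 with equal medians, −0.03 with quantile normalization and −0.05 without PTH replicate 1. *Pde3b* became −0.02, −0.01 and −0.06 under the same settings and −0.02 without YKL-05-093 replicate 2, with 0.07 as its highest value. *Pde4b* ranged from −0.01 without PTH replicate 1 to 0.12, and *Nr4a3* for PTH became −0.03 with quantile normalization. Of the other values of the members under an alternative, 261 kept direction and side of the threshold, 18 lost the call and 2 gained it.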

Other observations

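Outside the members, some genes of cAMP and cGMP handling differed between PTH and YKL-05-093 at a limma adjusted p below 0.05 without passing the 2-fold limit. They were 2 of 2 other phosphodiesterases tested, 0 of 4 adenylyl cyclases and 1 of 7 PKA subunits and inhibitors. Of the other effectors and exporters 1 of 3 passed, and of the anchors and partners 3 of 12 did. Among all genes, 10.0% (1427) were below this adjusted p. They are named after their values were seen. *Pde5a*, the cGMP-specific phosphodiesterase, was at 3.82 and 2.34 RPKM in vehicle, 5.63 and 4.96 RPKM with PTH, and 3.30 and 3.12 RPKM with YKL-05-093. It was higher with PTH than with YKL-05-093 by 0.70 on the log2 scale (SE 0.09, limma adjusted p = 4.87e-05). *Pde1b*, a calcium and calmodulin dependent phosphodiesterase, was at 0.681 and 0.888 RPKM in vehicle, 0.630 and 0.642 RPKM with PTH, and 1.24 and 1.39 RPKM with YKL-05-093, a direct difference of −0.94 (SE 0.21, limma adjusted p = 0.00681). Neither gene was called against vehicle, where limma adjusted p was 0.198 for *Pde5a* with PTH and 0.417 for *Pde1b* with YKL-05-093.

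*Rapgef3*, which encodes the cAMP-activated exchange factor EPAC1, was at 1.15 and 1.08 RPKM in vehicle, 2.08 and 1.94 RPKM with PTH, and 0.953 and 1.01 RPKM with YKL-05-093. Its direct difference was 0.96 (SE 0.12, limma adjusted p = 5.44e-05), and against vehicle it was 0.80 with PTH (SE 0.16, limma adjusted p = 0.0626). *Akap6*, an anchor that holds PKA and PDE4D together in muscle, was at 2.68 and 1.76 RPKM in vehicle, 1.15 and 0.998 RPKM with PTH, and 2.22 and 2.25 RPKM with YKL-05-093. It was lower with PTH than with YKL-05-093 by a difference of −1.0 (SE 0.10, limma adjusted p = 6.62e-06), at the edge of the 2-fold limit. *Akap1*, a mitochondrial anchor of PKA, was at 17.7 and 15.2 RPKM in vehicle. It was at 9.09 and 8.66 RPKM with PTH, and at 10.9 and 12.0 RPKM with YKL-05-093. Its direct difference was −0.37 (SE 0.08, limma adjusted p = 0.00489), and for PTH against vehicle it was −0.88 (SE 0.16, limma adjusted p = 0.0456). The direct difference was 0.25 for *Prkar1a* (SE 0.07, limma adjusted p = 0.0238) and −0.30 for *Akap12* (SE 0.07, limma adjusted p = 0.0124).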
